A study of Homo sapiens with 8 samples.

Results

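The rows examined here are those of the bulk RNA-seq count table that are named for exactly 1 gene of human chromosome 9, and the question was whether the subline DS3 and the cell line version PC9-BR1, for which the study infers deletions on this chromosome from single cells, were low over the same stretch. Of 22664 named rows, 815 are named for a chromosome 9 gene, with 227 on the short (p) arm and 588 on the long (q) arm. The 8 libraries, 1 per population, come from PC9, an established human non-small cell lung cancer cell line with an EGFR exon 19 deletion that all 8 populations share. PC9-VU and PC9-MGH are versions kept apart for years, PC9-BR1 descends from PC9-VU cells kept in rising doses of the EGFR inhibitor afatinib and is labelled positive for EGFR T790M, and DS3, DS6, DS7, DS8 and DS9 each grew from a single PC9-VU cell after nuclear labelling with H2BmRFP. All were sequenced untreated at passages 8 to 10. A subline is 1 clone, so a difference between sublines is a difference between clones. The named rows of a library sum to between 2717355 and 3497722 counts.

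Chromosome 9 has a short and a long arm, separated by a centromere with a long block of repeats next to it that holds few genes. When a cell loses or gains a whole arm or a long piece of one, the genes on it tend to be transcribed less or more together, by amounts that are small for each gene and visible only over many neighbours. Cancer cell lines often differ from one another by such pieces, and averaging expression along a chromosome is the usual way of looking for them in RNA data. RNA level alone does not measure DNA copies, and in a bulk library a lower level in every cell and a loss in a share of the cells cannot be told apart.

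Each population has a single library, so differences between populations cannot be weighed against replicate error and have no p-value. Values are log2 CPM, that is, counts relative to the library total, scaled with TMM factors, and a difference is a library's log2 CPM minus the median of the other 7 libraries unless another reference is named. Medians are taken over the 215 rows that average 50 counts or more, 104 on the p arm and 111 on the q arm. The share of rows that passed this filter was 45.8% on the p arm and 18.9% on the q arm. A median over rows is followed by an order-statistic 95% interval of that median, which depends on the spread over rows and on their number. Rows are not replicates, and neighbouring rows may share reads or regulation.

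No gene is described from a row, because on the q arm a row's name does not identify the transcript that was counted. On the p arm the row named RPS6, a ribosomal protein gene used by every cell, has a mean of 17510.5 counts, and the rows named VCP, TLN1 and CLTA, used in most cells, have means of 7103, 3719 and 1912. On the q arm the row named RPL12 has a mean of 1.5 counts and that named RPL35 is at 0 in all 8 libraries, although both are also ribosomal protein genes. The row named HSPA5, an abundant chaperone of the endoplasmic reticulum, has a mean of 0.625. Among 20 q arm rows named for olfactory receptors, which lung cancer cells are not known to use, 4 average 10 counts or more, and the highest has 2615.

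The counts of the q arm rows matched a place farther along the arm. Exons of the named genes were moved along the hg38 sequence in steps of 2000 bases, up to 3 Mb either way. The coding exon bases then covered were correlated with the counts. From 95 Mb to the q end the rows were taken in 4 blocks. In the first and the second block the correlation was highest at a move of 2762000 bases toward the q end, at 0.76 in both, against 0.10 and 0.31 unmoved. In the third the highest value, 0.55, was at the same move. In the last block the best move was 2864000 bases, with 0.76 against 0.13 unmoved, and a move of 2898000 bases gave 0.75. Moves beyond 3 Mb were not examined. The p arm was taken in 2 blocks, whose best moves were -24000 and 8000 bases. From 60 to 95 Mb the move was not resolved, with 0.57 at 1336000 bases and 0.53 at 2624000 bases. These are correlations across rows of the same libraries and are given as a description. Rows are therefore placed by the position of the gene they are named for, which keeps their order and arm, and Mb values on the q arm may lie nearly 3 Mb short of the transcripts counted.

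Against the median of the other 7 libraries, the q arm of DS3 and of PC9-BR1 was lower by a like amount, and the p arm of neither stood outside the range of the others. On the q arm the median log2 difference was -0.47 in DS3 (interval -0.54 to -0.41) and -0.47 in PC9-BR1 (interval -0.52 to -0.42), a ratio of 0.722 in both. The other 6 libraries had q arm medians of -0.00 in PC9-VU, 0.06 in PC9-MGH, 0.15 in DS6, 0.13 in DS7, 0.20 in DS8 and 0.12 in DS9. The intervals of DS3 and PC9-BR1 do not reach the median of any of these 6 libraries. On the p arm the median was -0.05 in DS3 (interval -0.13 to 0.04) and 0.02 in PC9-BR1 (interval -0.04 to 0.12). The p arm medians of the others ran from -0.07 in DS8 and PC9-VU to 0.09 in DS6 and DS9, a range that holds both values.

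**Figure D1:**
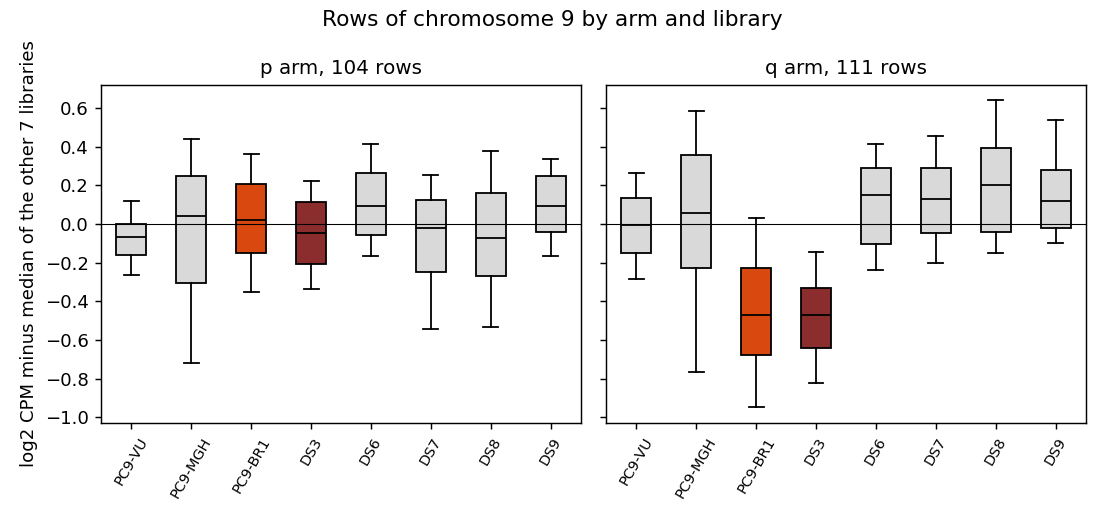
Log2 CPM minus the median of the other 7 libraries (y axis) for the rows of each arm in each library, with 104 rows on p and 111 on q. The line in a box is the median, the box spans the quartiles and the whiskers the 10th to 90th percentiles over rows; on q, the boxes of DS3 (-0.64 to -0.33) and PC9-BR1 (-0.68 to -0.23) lie below 0, while on p all 8 medians lie between -0.07 and 0.09.

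Most rows of the q arm took part. A row was called low at 0.8 times the median of the other 7 libraries or less. In DS3, 83 of 111 q arm rows were low (74.8%), against 14.1% of all 4529 rows tested on chromosomes 1 to 22 and X. In PC9-BR1 it was 75 of 111 (67.6%), against 17% of all rows. On p they were 14 of 104 in DS3 (13.5%) and 12 of 104 in PC9-BR1 (11.5%), near or under those shares. DS3 was below the median of the other 7 in 104 of the 111 q arm rows and 57 of the 104 p arm rows, against 49.6% of all rows. PC9-BR1 was below it in 98 and 45, against 50.7%.

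DS3 was the lowest of the 8 libraries in 43 q arm rows and 20 p arm rows, where it was the lowest in 11.7% of all rows. PC9-BR1 was the lowest in 47 q arm rows and 8 p arm rows, where it was the lowest in 12.4% of all rows. In 68 q arm rows (61.3%) the 2 lowest libraries were DS3 and PC9-BR1, compared with 5 p arm rows (4.81%) and 5.52% of all rows. The pair that came next on the q arm, PC9-MGH with DS3, held the lowest places in 15 rows.

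The difference did not rest on rows with few counts. For q arm rows with a mean of 50 to 100 counts (30 rows), 100 to 300 (42 rows) and at least 300 (39 rows), the medians were -0.42, -0.48 and -0.48 in DS3 and -0.35, -0.48 and -0.47 in PC9-BR1. The q arm median of PC9-BR1 spread more over rows with few counts, with an interquartile range of 0.67 in the lowest class and 0.27 in the highest.

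Summed counts gave the same picture over the rows that average 50 counts or more, to which the sums are limited. The q arm rows held 1.04% of the named counts in DS3 and 1.11% in PC9-BR1, with exact 95% binomial intervals of 1.03% to 1.05% and 1.10% to 1.13%. In the other libraries the share was 1.44% in PC9-VU, 1.46% in PC9-MGH, 1.49% in DS7, 1.57% in DS9, 1.68% in DS8 and 1.75% in DS6. The 2 lowest shares are those of DS3 and PC9-BR1, and no interval of theirs comes near the next, PC9-VU. The p arm rows held from 2.67% in DS3 to 3.02% in DS6, with PC9-BR1 at 2.85%. These intervals cover counting error only, since reads without molecular identifiers are not independent molecules. No single row made up most of the q arm sum: the largest, named KLF4, holds at most 13.8% of it. Other rows, chosen after their values were seen, were high in 1 library only. Those named TRPM6 and RORB had 4998 and 1954 counts in DS6, against 263 to 438 and 111 to 180 elsewhere. That named BAAT had 3686 counts in DS8, against 211 to 377 elsewhere. These rows raise the q arm shares of DS6 and DS8.

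**Figure D2:**
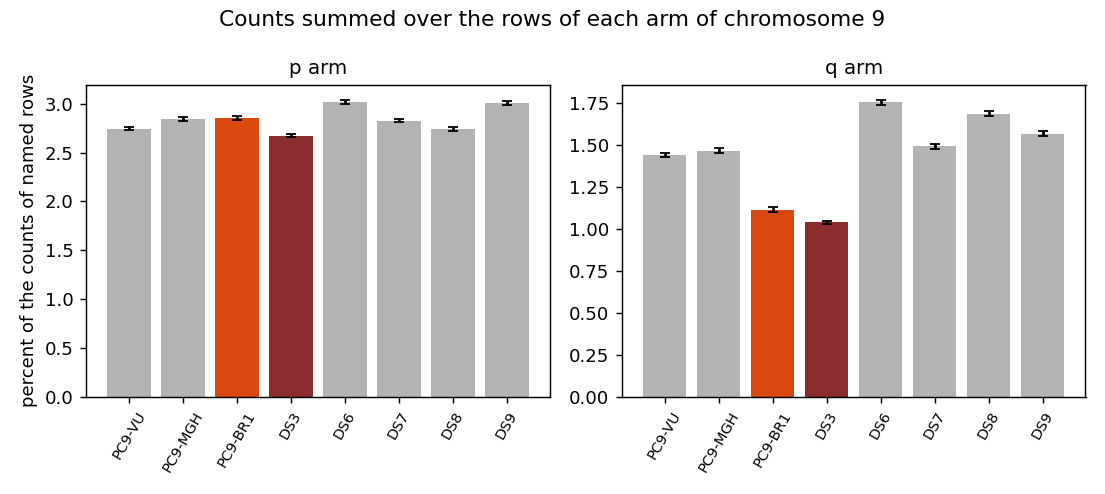
Counts summed over the rows of each arm that average 50 counts or more, as a percent of the counts of all named rows (y axis, from 0). Each library has a bar, with exact 95% binomial intervals as error bars. On q, DS3 at 1.04% and PC9-BR1 at 1.11% stand below the others, which start at 1.44%; on p, the shares run from 2.67% to 3.02%.

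Each difference from the other 7 libraries given above for DS3 or PC9-BR1 has the other low library in its reference. The comparison was therefore repeated with references that share no library. DS3 was set against the median of DS6, DS7 and DS9, which are clones of the same parent, and PC9-BR1 against PC9-VU, its own parent. DS8 and PC9-MGH, which stand apart from the other libraries, are in neither. The q arm median was -0.54 in DS3 (interval -0.59 to -0.46), a ratio of 0.689, and -0.47 in PC9-BR1 (interval -0.50 to -0.30), a ratio of 0.722. On the p arm it was -0.11 in DS3 (interval -0.18 to -0.03) and 0.09 in PC9-BR1 (interval 0.04 to 0.16). Against these references the p arm of DS3 was also slightly low and that of PC9-BR1 slightly high, each by less than its q arm.

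The references themselves were close to each other. PC9-VU minus the median of DS6, DS7 and DS9 was -0.11 on the q arm and -0.09 on the p arm, so PC9-VU lay below these clones by a like amount on both. DS3 minus PC9-BR1, row by row, had a median of 0.003 on the q arm (interval -0.10 to 0.07) and -0.07 on the p arm (interval -0.16 to 0.01). At the level of the arm, the 2 libraries were therefore not separable by the spread over rows.

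In summed counts, the q arm share of DS3 was 0.649 times that of DS6, DS7 and DS9 together (exact 95% interval 0.641 to 0.656), and that of PC9-BR1 was 0.771 times that of PC9-VU (0.760 to 0.782). The p arm ratios were 0.907 and 1.04. Summed counts weight rows by their level, and the reference of DS3 includes the high rows named TRPM6 and RORB in DS6. On them the q arm of DS3 was further below its reference than that of PC9-BR1, and the counting intervals do not overlap.

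In windows of 20 rows in position order, the median was below 0 in every q arm window of both libraries, and at 0.8 times the other 7 libraries or less in all 6 in DS3 and in all but window 8 in PC9-BR1. Named from the p end, windows 1 to 6 lie on the p arm and 7 to 12 on the q arm, with 4 rows left in window 6 and 11 in window 12. In window 7, from 69.0 to 96.4 Mb, the median difference from the other 7 libraries was -0.38 in DS3 and -0.41 in PC9-BR1. In window 8, from 96.5 to 122.5 Mb, it was -0.39 and -0.29. In window 9, from 122.6 to 127.9 Mb, it was -0.45 and -0.42.

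Toward the q end the medians of both were lower. In window 10, which starts at 127.9 Mb, DS3 was at -0.56 and PC9-BR1 at -0.54. In window 11, from 130.1 to 133.5 Mb, they were at -0.52 and -0.74. In the last window, from 133.5 to 134.9 Mb, they were at -0.99 and -0.71. In each of the 6 q arm windows, DS3 and PC9-BR1 were the 2 lowest of the 8 libraries. The other 6 libraries lay between -0.31 and 0.35 over these windows, both extremes being PC9-MGH, at -0.31 in window 7 and 0.35 in window 10. PC9-MGH in window 7 is thus 0.07 above DS3, the smallest gap to the 2 low libraries in any q arm window.

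Full windows of the p arm ran from -0.15 to 0.08 in DS3 and from -0.08 to 0.13 in PC9-BR1. Windows 1 to 3 of DS3, from 0.215 to 33.8 Mb, were all at about -0.15 (from -0.15 to -0.14), and windows 4 and 5 were at 0.08 and 0.02. The 4 rows of window 6, from 37.9 to 39.3 Mb, had a median of -0.48 in PC9-BR1 and 0.14 in DS3. One of these 4 rows, named CNTNAP3 and chosen after its values were seen, has 16 counts in PC9-BR1 and from 146 to 449 in the other libraries.

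**Figure D3:**
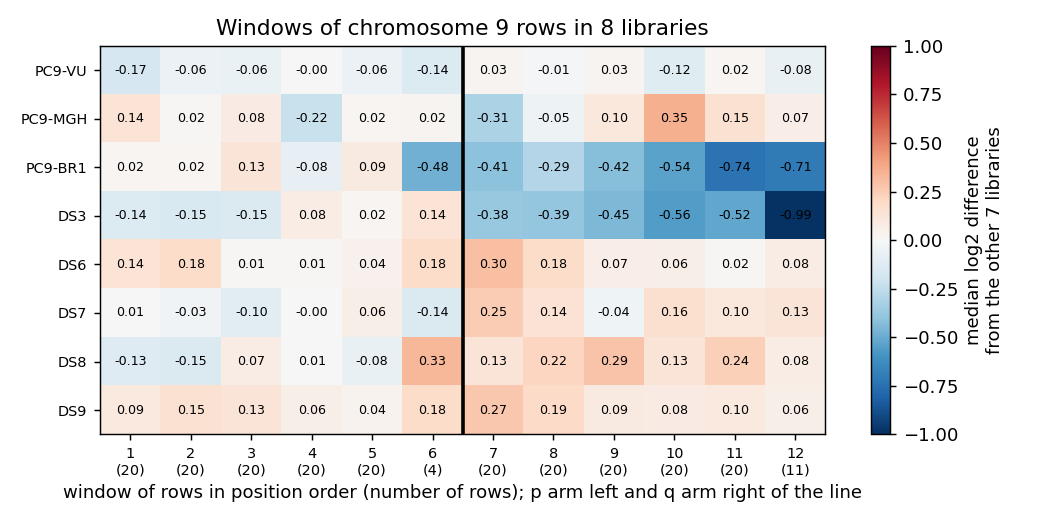
Median log2 CPM difference from the other 7 libraries (colour and printed value) in 12 windows of rows in position order (x axis, with the number of rows) for the 8 libraries (y axis); the line parts the arms. DS3 and PC9-BR1 are the 2 lowest in all 6 q arm windows, from -0.99 to -0.29, and apart from the 4 rows of window 6 neither is under -0.15 on p.

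The same windows were made on the other chromosomes. With the references that share no library, 214 full windows of 20 rows on chromosomes 1 to 22 and X were examined. A median at 0.8 times the reference or less was found in 5.14% of them in DS3 (11 windows), in 7.48% in PC9-BR1 (16 windows) and in 1.87% in both (4 windows). Of the 5 full q arm windows, 5 were low in DS3, 3 in PC9-BR1 and 3 in both. Of the 5 full p arm windows, none was low in either. On the other chromosomes 6 of 204 windows were low in DS3, 13 in PC9-BR1 and 1 in both, on chromosome 10, at -0.71 in DS3 and -0.39 in PC9-BR1. At or below the weakest q arm value in each library (-0.45 in DS3 and -0.27 in PC9-BR1) were 2 windows of other chromosomes, that one and a window of chromosome 8 at -0.50 and -0.30. A window of chromosome 20 lay near this range, at -0.30 in DS3 and -0.96 in PC9-BR1. Further windows of these chromosomes were also lowered in DS3 and PC9-BR1, in that order. They were at -0.64 and -0.21 on chromosome 8 and at -0.32 and -0.25 on chromosome 10. On chromosome 20 they were at -0.38 and -0.24, and at -0.28 and -0.31. The remaining windows of these chromosomes were above 0 in either or both libraries.

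The q arm windows of PC9-BR1 that missed the threshold were windows 7 and 8, at -0.28 and -0.27 against PC9-VU, where DS3 was at -0.46 and -0.45 against its own reference. From window 9 onward PC9-BR1 was at -0.38, -0.44, -0.62 and -0.70 and DS3 at -0.48, -0.56, -0.60 and -0.99.

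**Figure D4:**
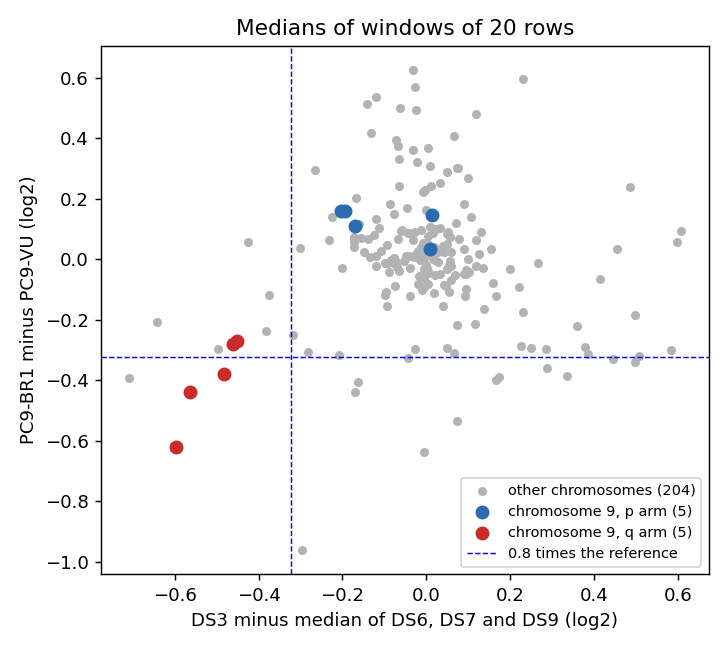
Median log2 CPM difference of DS3 from the median of DS6, DS7 and DS9 (x axis) and of PC9-BR1 from PC9-VU (y axis) in 214 windows of 20 rows, with dashed lines at 0.8 times the reference. All 5 full windows of 9q are left of the line for DS3 and 3 are also below that for PC9-BR1, the 5 of 9p are in neither region, and 1 of 204 windows of other chromosomes is in both.

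Sliding the window row by row gave a low stretch on the q arm of both libraries, whose length depended on the reference. A row was counted in the stretch where the window centred on it was low, rows at the ends of an arm taking the nearest full window. Against the separate references, 107 of the 111 q arm rows were in the stretch of DS3, in runs of 16 rows from 69.0 to 93.7 Mb and of 91 rows from 96.5 to 134.9 Mb. In PC9-BR1, 71 q arm rows were, in 4 runs: 4 rows from 93.6 to 96.1 Mb, 11 from 121.6 to 126.0 Mb, 8 from 126.9 to 127.7 Mb and 48 from 128.1 to 134.9 Mb. The run of 8 rows had a median of only -0.04 against PC9-VU. Its rows were counted because the windows centred on them, which reach beyond the run, were low. With the threshold used so far, no p arm row was in the stretch of either library. The libraries had 68 rows in common, which is 95.8% of the stretch of PC9-BR1 and 63.6% of that of DS3. Which stretch was the longer turned with the reference. With the references exchanged, so that DS3 was set against PC9-VU and PC9-BR1 against the 3 sublines, DS3 had 84 rows, all of them in common, and PC9-BR1 had 111, of which 75.7% were in common. Against the median of the other 7 libraries the stretches held 100 and 98 rows, with 93% and 94.9% in common. So the windows of both were low around much the same rows, and a difference in length between the stretches was not settled.

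The length also depended on the threshold, most of all in PC9-BR1. With low set at 0.870 times the reference all 111 q arm rows were in its stretch, and at 0.714 times 37 were. In DS3, 55 rows were left at 0.714 times. Without a threshold, when 1 segment, with its ends left free, was fitted to each library without regard to the arms, it was a higher segment that ran from 0.470 to 38.6 Mb in DS3 and from 0.215 to 38.4 Mb in PC9-BR1. The medians were -0.10 inside and -0.54 outside in DS3, and 0.11 and -0.47 in PC9-BR1. Both segments thus ended at the last rows of the p arm, 1 row apart. In DS3 the first row of the p arm also fell outside the segment. Outside it lay 113 rows in each library, including all 111 q arm rows.

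**Figure D5:**
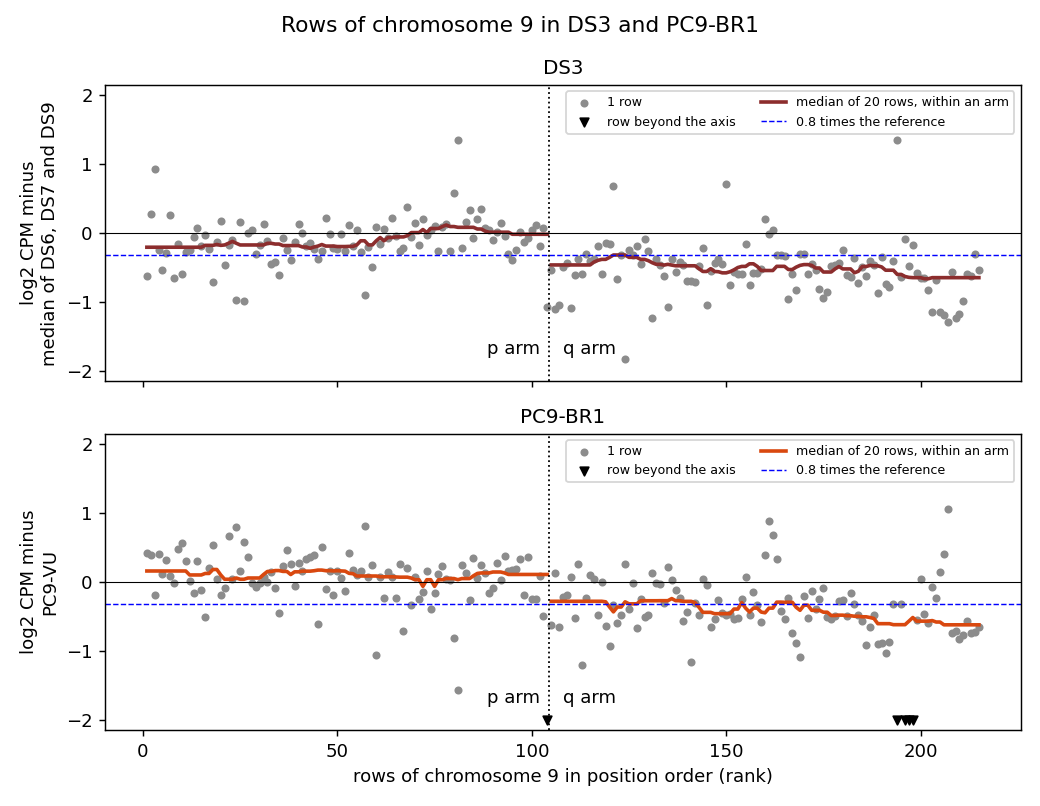
Log2 CPM of DS3 minus the median of DS6, DS7 and DS9 (top) and of PC9-BR1 minus PC9-VU (bottom) for the 215 rows in position order (x axis, rank). Grey points are rows, the line is the median of 20 rows within an arm, the dashed line marks 0.8 times the reference and triangles are rows beyond the axis; the line lies below 0 along the whole q arm in both, with medians of -0.54 and -0.47 over its rows.

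Where the lower part begins was not resolved further. No row averaging 50 counts or more is named for a gene between 39288316 and 69035750 of chromosome 9 (hg38), a distance of 29747435 bases that holds the largest run of unknown sequence, from 45518559 to 60518558. The 4 q arm rows next to it, from 69.0 to 74.7 Mb, had a median of -0.79 in DS3 and -0.42 in PC9-BR1 against their own references. The 4 p arm rows next to it, from 37.9 to 39.3 Mb, had medians of -0.06 and -0.37, so in PC9-BR1 the 4 rows on either side were close. Over 10 rows on each side, the q arm medians were -0.57 in DS3 and -0.22 in PC9-BR1 and the p arm medians -0.10 and -0.05. A change at the centromere and one anywhere else within this distance cannot be told apart.

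Within the q arm, how low a row was in DS3 told little about PC9-BR1, and the sign of the correlation depended on the rows taken. Across the 111 rows, the differences from the separate references had a Pearson correlation of -0.23 and a Spearman correlation of -0.03. Over the 90 rows where both differences were within 2-fold, they were 0.31 and 0.25. The points share libraries and depth, so these values are a description.

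A few neighbouring rows stood far from the arm in 1 of the libraries, and the rows named in what follows were chosen after their values were seen. Rows named GFI1B, GTF3C5 and CEL, which follow one another from 132.9 to 133.1 Mb, had 0 counts in PC9-BR1. The row named GFI1B had from 29 to 73 counts in the other 7 libraries, that named GTF3C5 from 79 to 123, and that named CEL from 67 to 104. DS3 had 65, 83 and 72 counts in them, within the range of the others. With 3 counts as the limit that a count of 0 allows per library, PC9-BR1 was 16.9-fold, 22.6-fold and 27.0-fold lower than PC9-VU. The counts of PC9-VU were taken as exact here, so these values are not strict lower bounds. Among the 4529 rows tested, each averaging 50 counts or more, they are the only 3 at 0 in PC9-BR1, and none of the 215 chromosome 9 rows among them is at 0 in another library. Over all 4529 rows, other libraries also had rows at 0: 11 in PC9-MGH, 3 in DS6, 2 in DS7 and 1 each in DS3, DS8 and DS9. The row just before that named GFI1B, named DDX31, had 362 counts in PC9-BR1 against 583 in PC9-VU. The row after that named CEL, named MED22, had 705 against 1324, so neither neighbour was near 0 in PC9-BR1. The row named MED27, next before DDX31, had 14 counts in PC9-BR1 and 141 in PC9-VU, but 240 in DS3, the highest of the 8 libraries. Without the 3 rows at 0, the q arm median of PC9-BR1 was -0.45 against the other 7 libraries and -0.44 against PC9-VU.

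Nearer the q end the opposite was seen. In the adjoining rows named ADAMTSL2, FAM163B and DBH, from 133.5 to 133.6 Mb, DS3 had 266, 47 and 75 counts, the lowest of the 8 libraries in each. PC9-BR1 had 526, 134 and 262 counts there, against 610, 129 and 160 in PC9-VU. The differences from the other 7 libraries were -1.18, -1.26 and -1.28 in DS3 and 0.03, 0.41 and 0.75 in PC9-BR1. In the rows named BRD3OS and BRD3, 2 places farther on, both libraries were low again, with 46 and 100 counts in DS3 and 38 and 92 in PC9-BR1 against 81 and 212 in PC9-VU.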

How the data were processed

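Bulk RNA from 8 PC9 populations, 1 library each, was rRNA-depleted, poly-A selected and sequenced by the authors, who aligned reads with STAR (version 2.5.2b) to hg38, counted them with featureCounts (version 1.6.4, Subread package) using the annotation of their single-cell data, and deposited raw counts per gene symbol without normalization. Strandedness is not given in the sources used here. Rows without a symbol (8324 of 30988, from 4.23% to 4.41% of a library's counts) were left out. The named rows hold 2717355 to 3497722 counts per library, so single rows are imprecise and results are given over many rows.

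Row names, with hyphens written as dots, were matched to GENCODE (release 44) symbols, and 22214 matched exactly 1. Arms were split at the largest run of N in the chromosome 9 sequence. Log2 CPM was computed with edgeR (version 4.0.16, R version 4.3.3), TMM factors from rows averaging 10 counts or more and a prior count of 2. Medians, windows and counts were computed in Python (version 3.11.15) with scipy (version 1.17.1). A row or window was called low at 0.8 times its reference or less. Steps were tested on simulated data.

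The rows, references and thresholds were chosen with earlier results of these data known. By the rule for naming, no gene is described from a row, and the rows named RPS6, RPL12, RPL35, RPL7A, HSPA5, SET, VCP, CLTA and TLN1 and those for interferon alpha and olfactory receptor genes serve only as a check of names. On the q arm the rows named RPL7A and SET have means of 124 and 127 counts, and none of 13 interferon alpha rows, all on the p arm, averages 10 counts. Alternatives varied the scaling (DESeq2 version 1.42.0 among them), the filter, the prior count, the reference, the windows and the threshold.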

Additional observations from a re-analysis of the deposited data

Results flagged for a closer look

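Among the 5 sublines, the q arm median of DS3 stood apart from the rest. At -0.4701 it lay 0.883 of the whole range of the 5 below the next subline, where Dixon's 95% critical value for 5 samples is 0.71. By chance, about 1 in 20 groups is marked in this way, and 4 measures were examined, of which this is 1. The CPM summed over the q arm rows, also lowest in DS3, was not marked (0.673), nor was either p arm measure.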

How the results depend on the processing

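The q arm median was below 0 in DS3 and PC9-BR1 under all 20 alternatives, from -0.55 to -0.27 and from -0.49 to -0.14, references with 1 library left out among them. Of these, leaving out rows within 5 Mb of the largest run of N removed no row, so it could not differ. Without a filter on low rows the q arm median was -0.2663 in DS3 and -0.1372 in PC9-BR1, where many rows hold few counts. From summed counts it was -0.5469 in DS3, and the p arm of PC9-BR1 was at -0.0543. The p arm median of DS3 ran from -0.10 to 0.02.

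The length of the stretch depended on the settings. PC9-BR1 had 111 rows with low set at 0.870 times the reference, 37 at 0.714 times, 111 with the references exchanged (84 in DS3) and 113 with 1 fitted segment, and DS3 had 55 at 0.714 times. The share of the PC9-BR1 stretch in common was 86.49% with windows of 10 rows and at 0.714 times, 100% with windows of 30 rows, at 0.870 times and for rows averaging 10 or 100 counts or more, and 75.68% with the references exchanged. That of DS3 was 87.4% at 0.870 times, 88.89% for rows averaging 100 counts or more, 93% against the median of the other 7, 100% with the references exchanged and 99.12% with 1 fitted segment. As 1 stretch nears the whole q arm, the share of the other in common with it rises toward 100% by construction. The cause of the differences between settings was not tested.

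At 1.5-fold lower, DS3 had 36 rows on q and 3 on p (2.88%), against 4.15% of all rows, and PC9-BR1 had 38 and 7 (6.73%), against 6.82%. Among rows averaging 10 counts or more, PC9-BR1 had 21 on p (16.5%), against 20.2%. The settings with the 6 other libraries as reference, with 1 value per Mb and with windows slid across the arms were chosen after seeing the data. The first gave q arm medians of -0.52 in DS3 and -0.49 in PC9-BR1, the second -0.43 and -0.46, and the third stretches of 109 and 73 rows. No paired analysis was possible because each population has 1 library.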
